A study of Mus musculus with 2 samples.

Results

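MHC class I molecules display peptides from a cell's own proteins on its surface, where CD8+ T cells read them. The 10 genes examined here build this display. H2-K1 and H2-D1 encode the heavy chains that hold the peptide, and B2m encodes the light chain they need to reach the surface. Psmb8, Psmb9 and Psmb10 encode the catalytic subunits that turn the proteasome into the immunoproteasome, Tap1 and Tap2 encode the transporter that moves peptides into the endoplasmic reticulum, and Tapbp (tapasin) couples that transporter to an empty class I molecule. Nlrc5 encodes a transactivator of class I genes, and interferon gamma is the best known inducer of the set. The genes were chosen by name, as 10 of the 33696 genes counted, and all 10 were detected in each of the 5 cell classes below in each library.

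The cells came from tumors of PyMT-M and PyMT-N, C57BL/6 sublines of the MMTV-PyMT mammary tumor model that the study classes as High-MAC (rich in macrophages) and Low-MAC (poor in macrophages), grown from injected cells in the mammary fat pad of female C57BL/6 mice. No further treatment separates the groups, and every cell went through the same depletion of CD45+ and Ter119+ cells and the same enrichment and sorting for the endothelial proteins CD31 and CD144. Cells from 3 tumors were pooled for each subline, giving 1 library per condition, so no difference between PyMT-M and PyMT-N has a replicate check and no test between conditions was made. All intervals below are 95% intervals that cover counting error only. They say nothing of the spread between tumors, and the tumor line, the pool and the library cannot be told apart.

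Barcodes with at least 200 genes and at most 10% mitochondrial UMIs were kept, which left 6719 of 7821 in PyMT-M (median 21262 UMIs) and 5607 of 6974 in PyMT-N (median 18558 UMIs). Blood endothelial cells (at least 5 UMIs of Pecam1, Flt1, Emcn and Kdr together, at most 1 of Krt8, Krt18 and Rhox5, none of Prox1) numbered 588 in PyMT-M and 1065 in PyMT-N, with medians of 5206.5 and 12696 UMIs. Tumor cells (at least 3 UMIs of Krt8, Krt18 and Rhox5, none of Pecam1 and Flt1) numbered 4902 and 3306. Lymphatic cells (at least 3 UMIs of Prox1, Mmrn1 and Reln) numbered 20 and 207, fibroblasts (Col3a1 of at least 3000 per 1000000 UMIs of the cell) 58 and 63, and Ptprc+ cells, which express the gene of CD45, 488 and 357. The classes may overlap, 724 and 699 kept cells were in none of them, and 20 barcode sequences occurred in both libraries. The blood endothelial label was borne out by all 8 endothelial markers that the rule did not use, which summed to 5155 and 5624 CPM (counts per 1000000 UMIs, here of the class). The tumor label rests on the genes of its rule, since Epcam, Krt19, Krt7, Krt14 and Cdh1 summed to 3.66 and 1.52 CPM in those cells, Krt19 being at 0 in PyMT-M. Of the rule's genes, Krt8 was at 268 CPM (PyMT-M) and 808 CPM (PyMT-N), Krt18 at 0.0662 and 1003, and Rhox5 at 669 and 14.5. The rule thus picked tumor cells by partly different genes in the 2 libraries, which bears on every tumor ratio below.

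Class I genes are known to be switched on through a few short promoter elements, an interferon response element, a gamma-activated site, an NF-kB site, and the X2 and Y boxes on which NLRC5 acts with its partner factors. The windows of 250 bases before to 50 bases after the start site that RefSeq gives on GRCm38.p6 were searched on both strands for 1 set of letters each. These were GAAA and GAAA with 2 free bases between them, TTCNNNGAA, GGGGA and CC with 3 free bases between them, TGACG and CCAAT, in that order. These letters occur in 3.44%, 8.30%, 5.73%, 20.8% and 37.4% of the 32851 windows in that table. Windows were found for 8 of the 10 genes, without Tap2 and Nlrc5. The 4 windows printed here are those of the heavy chains, whose ratios parted from each other in tumor cells, of B2m, and of Tap1, whose window shares 275 bases with that of Psmb9 on the opposite strand. They are written 5′ to 3′ in the direction of the gene, and capitals mark every match to the 5 sets of letters.
H2-K1 (chr17:34000284-34000583, minus strand): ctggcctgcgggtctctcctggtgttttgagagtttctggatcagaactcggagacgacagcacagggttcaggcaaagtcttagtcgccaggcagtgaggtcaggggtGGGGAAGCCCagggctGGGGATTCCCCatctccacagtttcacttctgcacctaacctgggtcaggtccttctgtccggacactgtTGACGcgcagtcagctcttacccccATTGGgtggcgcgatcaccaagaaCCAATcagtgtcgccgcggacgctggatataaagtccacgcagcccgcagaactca
H2-D1 (chr17:35262844-35263143, plus strand): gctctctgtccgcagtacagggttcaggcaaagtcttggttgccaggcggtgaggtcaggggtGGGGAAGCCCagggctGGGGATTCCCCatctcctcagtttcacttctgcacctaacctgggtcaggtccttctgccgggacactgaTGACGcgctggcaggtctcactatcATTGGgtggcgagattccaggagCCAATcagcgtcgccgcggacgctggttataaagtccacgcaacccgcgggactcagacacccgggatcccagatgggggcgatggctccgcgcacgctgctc
B2m (chr2:122147437-122147736, plus strand): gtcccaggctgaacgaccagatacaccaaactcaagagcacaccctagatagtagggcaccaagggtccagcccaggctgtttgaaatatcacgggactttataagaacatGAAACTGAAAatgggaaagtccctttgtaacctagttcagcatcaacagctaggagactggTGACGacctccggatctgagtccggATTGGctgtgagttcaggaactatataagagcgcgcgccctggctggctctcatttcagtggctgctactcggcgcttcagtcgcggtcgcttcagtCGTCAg
Tap1 (chr17:34187306-34187605, plus strand): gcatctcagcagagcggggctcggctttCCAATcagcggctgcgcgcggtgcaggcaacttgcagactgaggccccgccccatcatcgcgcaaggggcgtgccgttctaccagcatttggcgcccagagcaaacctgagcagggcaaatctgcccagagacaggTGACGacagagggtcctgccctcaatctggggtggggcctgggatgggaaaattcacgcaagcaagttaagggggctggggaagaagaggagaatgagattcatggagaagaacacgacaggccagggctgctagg

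The heavy chain windows, of which H2-K1 has another listed nearby, were alike in 222 of 253 aligned bases (87.7%). Each held 3 NF-kB matches, of which 2 overlap, 1 TGACG and 2 CCAAT matches, so the motif search did not separate H2-K1 from H2-D1. B2m had the only match to the letters searched for the interferon response element among the 8 members, with its first base at -139 from the start site. Psmb8 had the only match to those of the gamma-activated site, at -97. Tap1 and Psmb9 shared 1 TGACG and 1 CCAAT match, Tapbp had 2 CCAAT matches, and Psmb10 had no match to any of the 5. A match is a description of letters and not evidence of a site in use. Nor is the lack of a match evidence that an element is absent. With 1 set of letters searched for each, a site written in other letters is missed, in the heavy chain windows too. Coordinates are given on GRCm38.p6 for these windows only, because the counts were made on mm39.

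In blood endothelial cells all 10 genes were higher in the PyMT-M library than in the PyMT-N library. The members summed to 9082 CPM for PyMT-M against 4785 CPM for PyMT-N, a log2 ratio of 0.92 (0.905 to 0.944). The median log2 ratio of the 10 genes was 0.94, against -0.0068 for all 11547 genes with at least 50 UMIs in the class, of which 49.4% were above 0. Of the members 5 were at least 2-fold higher in PyMT-M, where 4.17% of all genes were, and 0 were at least 2-fold lower, where 6.99% were. Genes of mural cells and fibroblasts were also higher in this class of PyMT-M. The 4 pericyte markers summed to 91.6 and 6.71 CPM, led by Rgs5 at 64.6 and 2.88, the 6 fibroblast markers summed to 56.7 and 9.52 CPM, and the smooth muscle actin gene Acta2 had a log2 ratio of 6.57. In the 524 and 859 blood endothelial cells that were in no other class and had no UMI of these lists, Acta2 and Actg2, the members summed to 9010 and 4887 CPM, and the log2 ratio was 0.88 (0.861 to 0.904).

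Among the heavy and light chains, H2-K1 stood at 2449 CPM (PyMT-M) against 1102 CPM (PyMT-N) in blood endothelial cells, a log2 ratio of 1.15 (1.11 to 1.19). H2-D1 stood at 2436 and 1348 CPM, a log2 ratio of 0.85 (0.816 to 0.891). B2m, the most abundant member in that class, stood at 2967 and 1678 CPM, a log2 ratio of 0.82 (0.788 to 0.856). The intervals of the libraries were far apart for these 3 genes. The difference was spread over the class, since the quartiles of the CPM of single cells ran from 1354 to 3414 for H2-K1 in PyMT-M (median 2275) and from 487 to 1643 in PyMT-N (median 979).

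The transporter subunits differed in the size of the difference. Tap1 was at 133 CPM (PyMT-M) against 64.1 CPM (PyMT-N) in blood endothelial cells (log2 ratio 1.05, 0.880 to 1.21), whereas Tap2 was at 77.6 and 60.4 CPM (0.36, 0.156 to 0.563), the smallest ratio of the set. Tap1 thereby made up 63.1% of the UMIs of the transporter pair in PyMT-M (59.3 to 66.7%) and 51.5% in PyMT-N (49.2 to 53.8%). Tapbp was at 190 and 121 CPM, a log2 ratio of 0.65 (0.513 to 0.779).

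The immunoproteasome subunits were about 2-fold higher. Psmb8 was at 446 CPM (PyMT-M) against 218 CPM (PyMT-N) (log2 ratio 1.03, 0.942 to 1.12), Psmb9 at 168 and 77.1 (1.12, 0.974 to 1.27), and Psmb10 at 169 and 94.5 (0.84, 0.696 to 0.983). Each of these takes the place of a constitutive subunit, and the share of the inducible form was higher in PyMT-M for all 3 pairs. Psmb8 made up 63.4% of the UMIs of Psmb8 and Psmb5 in PyMT-M and 53.0% in PyMT-N, Psmb9 36.6% and 26.1% of Psmb9 and Psmb6, and Psmb10 53.4% and 41.5% of Psmb10 and Psmb7. The intervals of the libraries did not overlap in any of these pairs. Nlrc5, the least abundant member, was at 46.7 and 21.9 CPM, a log2 ratio of 1.09 (0.809 to 1.38).

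The lower depth of PyMT-M blood endothelial cells bears on the share of cells with a UMI. Unthinned, Psmb9 was seen in 51.9% of cells in PyMT-M and 54.9% in PyMT-N. With each cell thinned to 3000 UMIs, which left out 108 PyMT-M and 7 PyMT-N cells, it was seen in 37.7% (33.4 to 42.2%) and 19.2% (16.9 to 21.7%). After thinning the share was higher in PyMT-M with intervals apart for 9 of the 10 members, for example 97.5% against 85.3% for H2-K1 and 70.4% against 44.0% for Psmb8. Tap2 was the exception at 20.8% and 17.7%. The share of all genes higher in this way after thinning was not calculated, so the count stands without a background. Nucleated cells in general express class I genes, so no class here served as a background for their shares. RNA of a tumor gene was counted in the other classes too, since Rhox5, at 669 CPM in PyMT-M tumor cells, was at 101 CPM in lymphatic cells, 240 in fibroblasts and 395 in Ptprc+ cells of that library, and at 9.71 CPM in blood endothelial cells, whose rule limits it.

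**Figure D1:**
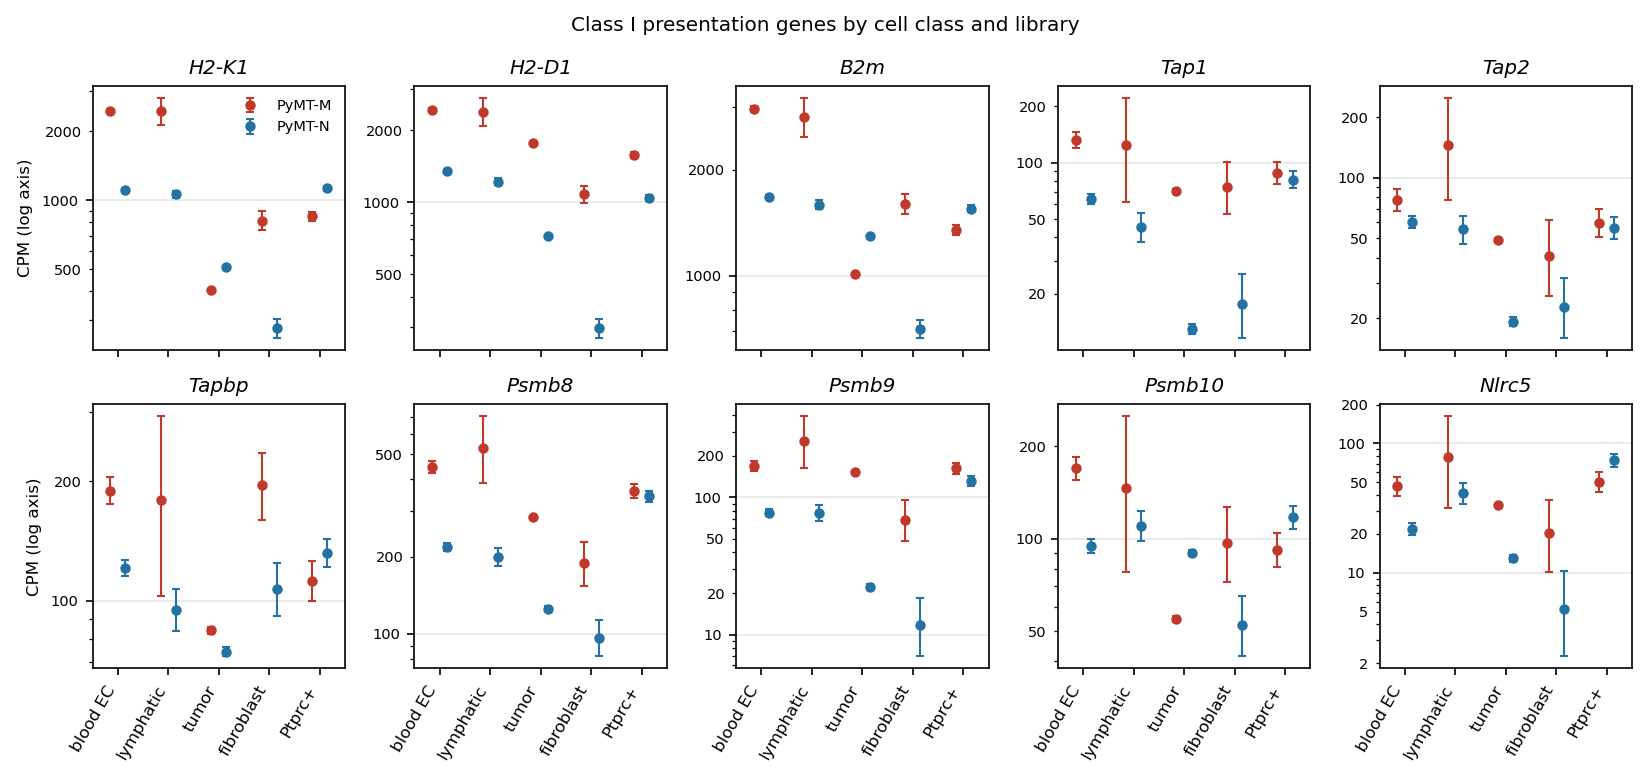
CPM of each of the 10 genes (log axis) in the 5 cell classes, with PyMT-M in red and PyMT-N in blue; points are the UMIs of a class summed in 1 library and bars are exact 95% Poisson intervals. Blood endothelial (blood EC) points are higher in PyMT-M for every gene, whereas in tumor cells H2-K1, B2m and Psmb10 are lower in PyMT-M.

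Tumor cells of the same 2 libraries did not show 1 common shift. Of the 10 members 7 were higher in PyMT-M tumor cells, where 47.1% of all genes were, and 3 were lower. The median log2 ratio of the members was 1.24 against -0.086 for all 14996 genes tested in that class. At least 2-fold higher in PyMT-M were 6 members, where 21.0% of all genes were, and 0 were at least 2-fold lower, where 25.6% were. The tumor libraries differed in far more genes than the endothelial ones, so that count stands against a high background. Summed, the members reached 3925 CPM (PyMT-M) against 2887 CPM (PyMT-N), a log2 ratio of 0.44 (0.436 to 0.451).

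Psmb9 and Tap1 had the highest ratios. Psmb9 was at 152 CPM (PyMT-M) against 22.2 CPM (PyMT-N) in tumor cells, a log2 ratio of 2.78 (2.71 to 2.85) or 6.86-fold. Tap1, its neighbor across the shared promoter window, was at 70.9 and 13.0 CPM, a log2 ratio of 2.45 (2.36 to 2.55). Tap2 was at 49.1 and 19.2 CPM (1.36, 1.27 to 1.44) and Psmb8 at 284 and 125 CPM (1.18, 1.15 to 1.21). Nlrc5 was at 33.2 and 12.9 CPM, a log2 ratio of 1.36 (1.26 to 1.46). In thinned cells Psmb9 was seen in 36.4% of PyMT-M and 6.05% of PyMT-N tumor cells, and Tap1 in 20.4% and 3.72%.

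Psmb10 and Tapbp did not follow. Psmb10, the third inducible subunit, was at 54.8 CPM (PyMT-M) against 89.8 CPM (PyMT-N) in tumor cells, a log2 ratio of -0.71 (-0.761 to -0.663). The subunits therefore parted within the tumor cells. Psmb9 made up 33.6% of its pair with Psmb6 in PyMT-M against 8.29% in PyMT-N, and Psmb8 48.4% against 36.0% of its pair with Psmb5, while Psmb10 made up 20.8% against 38.2% of its pair with Psmb7. Tapbp was at 84.3 and 74.2 CPM, a log2 ratio of 0.18 (0.136 to 0.230). That value turned to -0.17 in stricter classes, which kept 177 of the 4902 PyMT-M tumor cells because Col3a1 UMIs were not allowed, and stood at 0.20 when that limit alone was lifted (4550 cells).

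The heavy chains went opposite ways in tumor cells. H2-D1 was at 1779 CPM (PyMT-M) against 723 CPM (PyMT-N), a log2 ratio of 1.30 (1.28 to 1.31), whereas H2-K1 was at 407 and 509 CPM, a log2 ratio of -0.32 (-0.342 to -0.303). B2m, the partner of both, was at 1011 and 1298 CPM, a log2 ratio of -0.36 (-0.373 to -0.349). H2-K1 thus made up 18.6% of the UMIs of the 2 heavy chains in PyMT-M tumor cells (18.5 to 18.8%) and 41.3% in PyMT-N tumor cells (41.0 to 41.6%). The low share was a property of most cells and not of a few, since over the 4895 PyMT-M tumor cells with at least 5 UMIs of the pair the quartiles were 14.3% and 22.8% (median 18.5%), below the 30.8% and 50% of 3142 PyMT-N tumor cells (median 40.0%).

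In the other classes the heavy chains were nearer to balance. H2-K1 made up 50.1% in PyMT-M and 45.0% in PyMT-N blood endothelial cells, 50.5% and 46.5% in lymphatic cells, and 42.9% and 48.3% in fibroblasts. Ptprc+ cells had 35.0% in PyMT-M and 51.8% in PyMT-N. PyMT-M tumor cells had the lowest share of the 10 combinations of class and library. Class I H2 genes such as H2-K1 and H2-D1 are alike in sequence. Reads common to several of them could be lost or assigned to the wrong gene, so the levels of H2-K1 and H2-D1 are less certain than those of the other members.

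**Figure D2:**
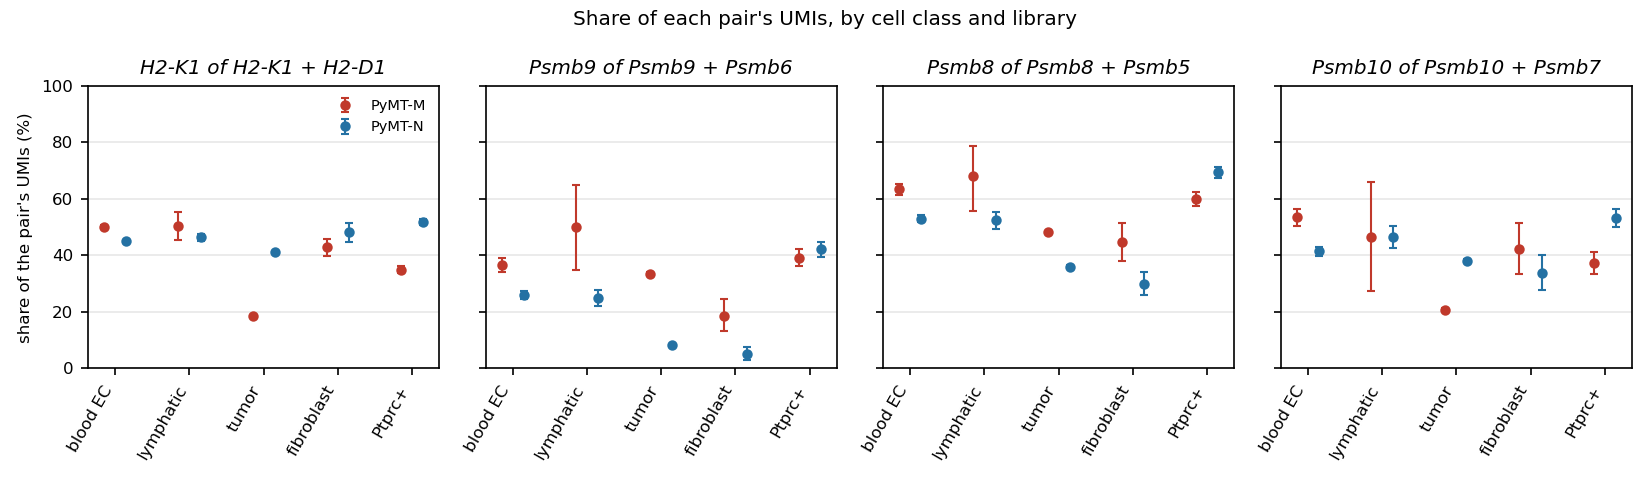
Share (%) of H2-K1 in the UMIs of H2-K1 and H2-D1, and of each inducible proteasome subunit in the UMIs of its pair with the constitutive subunit, by cell class, with PyMT-M in red and PyMT-N in blue and bars giving exact 95% binomial intervals. In tumor cells the shares of H2-K1 (18.6% against 41.3%) and Psmb10 are lower in PyMT-M while those of Psmb9 and Psmb8 are higher.

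Setting the tumor ratio against the blood endothelial ratio gave, for each gene, the log2 ratio in tumor cells minus that in blood endothelial cells. The median of the 10 differences was 0.21, against -0.050 for all 10974 genes tested in both classes, and the members lay on both sides. At least 1 log2 unit higher in tumor cells were 2 members, where 15.2% of all genes were, and at least 1 lower were 3, where 19.3% were. The interval lay above 0 for 5 members and below 0 for 4. The share of all genes whose interval left out 0 was not calculated, so these last counts stand without a background.

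Psmb9 and Tap1 had the largest differences toward tumor cells, at 1.65 (1.49 to 1.82) and 1.40 (1.21 to 1.60), followed by Tap2 at 1.00 (0.778 to 1.22). H2-D1 differed by 0.44 (0.405 to 0.485) and Psmb8 by 0.15 (0.0543 to 0.245), the latter turning to -0.22 in the stricter classes. Nlrc5 differed by 0.26 with an interval that held 0 (-0.0356 to 0.567). These genes, apart from Tap2, had blood endothelial ratios close together, between 0.85 and 1.12, so the order came mostly from the tumor cells. H2-D1 and Nlrc5 were an exception, with tumor ratios of 1.30 and 1.36 but blood endothelial ratios of 0.85 and 1.09.

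Psmb10, H2-K1 and B2m differed the other way, by -1.55 (-1.70 to -1.40), -1.48 (-1.52 to -1.43) and -1.18 (-1.22 to -1.15), being higher in PyMT-M endothelium and lower in PyMT-M tumor cells. Tapbp differed by -0.46 (-0.604 to -0.323). For the summed members the difference was -0.48 (-0.502 to -0.460). Median and sum thus had opposite signs.

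Seen within a library, tumor cells were below blood endothelial cells for all 10 genes in PyMT-M and for 9 in PyMT-N with intervals that excluded 0. The share of all genes lower in tumor cells in this way was not calculated, so these counts stand without a background. H2-K1 was 6.02-fold lower in tumor than in blood endothelial cells of PyMT-M and 2.17-fold lower in PyMT-N, and B2m 2.94-fold and 1.29-fold. Psmb9 was 1.10-fold lower in PyMT-M and 3.47-fold lower in PyMT-N, and Tap1 1.87-fold and 4.95-fold. The gap between tumor cells and endothelium was therefore wider in PyMT-M for H2-K1, B2m, Tapbp and Psmb10, and narrower for Psmb9, Tap1, Tap2, H2-D1 and, by little, Psmb8. Psmb10 in PyMT-N was the member without a clear gap, at 1.05-fold.

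**Figure D3:**
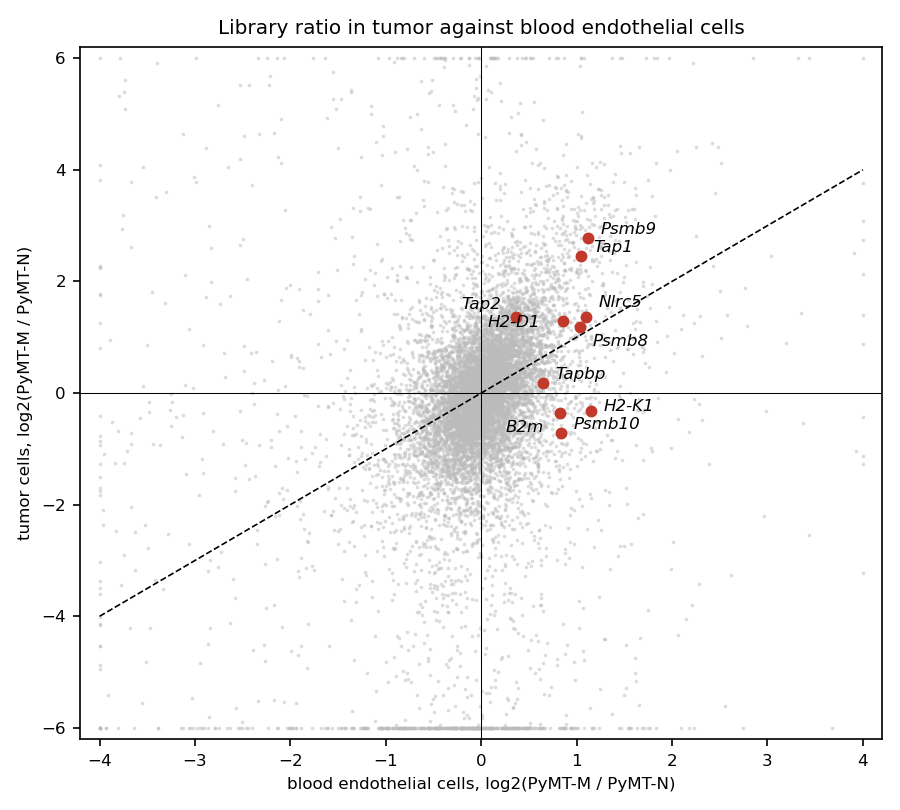
Log2 ratio of PyMT-M to PyMT-N in tumor cells (vertical) against that in blood endothelial cells (horizontal) for the 10 members (red) over all 10974 genes tested in both classes (grey); the dashed line marks equal ratios and genes beyond the axes are drawn at their edge. All members lie right of 0, with H2-K1, B2m and Psmb10 below 0 in tumor cells and Psmb9 and Tap1 farthest above the line.

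Lymphatic cells and fibroblasts, counted in few cells, had higher values in PyMT-M as well. In lymphatic cells all 10 members were above 0, with a median log2 ratio of 1.09, and 5 were at least 2-fold higher, where 8.87% of genes were, and 0 lower, where 14.2% were. The PyMT-M values rest on 811 UMIs of the members in 20 cells. Tap1 (11 UMIs, 1.44, 0.404 to 2.33), Psmb10 (13 UMIs, 0.41, -0.517 to 1.20) and Nlrc5 (7 UMIs, 0.93, -0.415 to 2.02) are thus loosely set. The intervals of Psmb10 and Nlrc5 held 0. H2-K1 was at 2438 and 1059 CPM there, levels whose intervals overlapped those of blood endothelial cells in each library. In fibroblasts the 9 members with at least 50 UMIs were all above 0, where 45.6% of all genes were. The median of these members was 1.18 against -0.074 for all genes. At least 2-fold higher were 5, where 5.85% of all genes were, and 0 were lower, where 10.8% were. Tumor markers moved with these values, 8 genes summing to 169 and 121 CPM in lymphatic cells and to 331 and 165 CPM in fibroblasts, of which 12 of 58 and 9 of 63 were also tumor cells. In cells of 1 class alone without a UMI of Krt8, Krt18 and Rhox5, the summed members had a log2 ratio of 1.09 (0.969 to 1.20) in 18 and 168 lymphatic cells and of 1.96 (1.83 to 2.10) in 36 and 32 fibroblasts, and H2-K1 in those fibroblasts was at 949 and 188 CPM (2.34). Fibroblast H2-K1 in the whole class was at 813 and 276 CPM and H2-D1 at 1083 and 296, so that the heavy chains moved together there (log2 ratios of 1.56 and 1.87). Nlrc5 had 11 and 8 UMIs in fibroblasts and was not counted. The fibroblasts of the libraries also differed in mural genes and depth. Rgs5 had 99 UMIs (184 CPM) among PyMT-M fibroblasts against 0 among PyMT-N ones. Pdgfrb went the other way, with 203 against 417 CPM, and the 4 pericyte markers summed to 437 against 450 CPM. The median fibroblast held 7639 UMIs for PyMT-M against 23413 for PyMT-N. The part of these differences in the fibroblast ratios was not tested.

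Ptprc+ cells showed no common direction. The members summed to 4702 CPM (PyMT-M) against 4657 CPM (PyMT-N), with a log2 ratio near 0 at 0.014 (-0.019 to 0.046). None was 2-fold apart, where 9.86% of genes were higher and 12.6% lower. H2-K1 was at 849 and 1125 CPM, H2-D1 at 1577 and 1046, and Nlrc5 at 50.8 and 74.2. The heavy chains thus parted in Ptprc+ cells in the same directions as in tumor cells. These cells also carried tumor markers, Krt8, Krt18 and Rhox5 with 5 others summing to 552 CPM (PyMT-M) against 400 CPM (PyMT-N), and the PyMT-M cells had a median of 1721.5 UMIs against 7581. In the 405 and 239 Ptprc+ cells that belonged to no other class and had no UMI of the tumor genes, H2-K1 was at 1499 and 1339 CPM and H2-D1 at 1498 and 1187, and the log2 ratio of H2-K1 was 0.16 in place of -0.41. The log2 ratio of the summed members was 0.22 in those cells. By lineage, PyMT-M H2-K1 and H2-D1 were at 1107 and 1658 CPM in 127 myeloid cells and 1076 and 1374 in 59 T or NK cells. They were at 667 and 1573 in the 302 cells below the marker UMI cuts of both, which had a median of 1365.5 UMIs. No cut was set for B cells. Between the libraries, the summed members had a log2 ratio of 0.22 (0.170 to 0.267) in myeloid cells. It was -0.17 (-0.262 to -0.0778) in T or NK cells and 0.16 (0.105 to 0.219) in cells below both cuts. The value near 0 for the whole class thus covers lineages on both sides of 0.

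**Figure D4:**
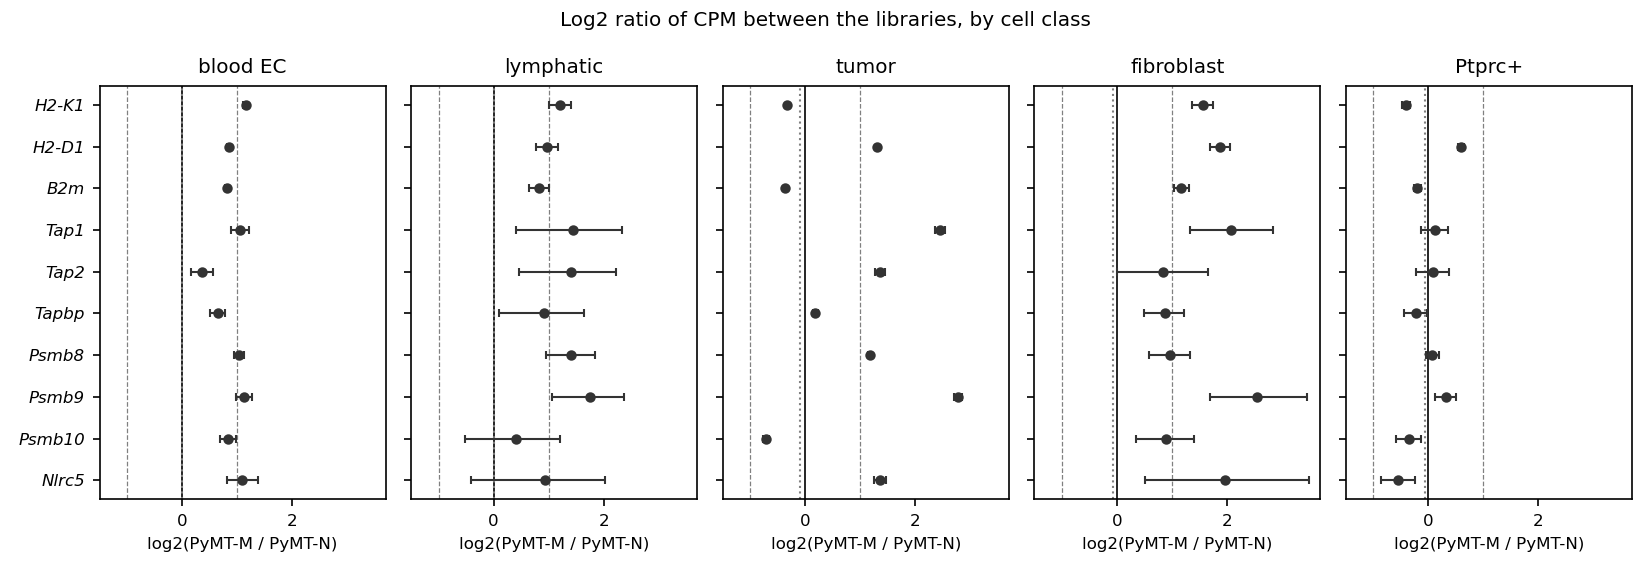
Log2 ratio of CPM between PyMT-M and PyMT-N for each member, in a panel for each cell class; points are ratios of summed UMIs, bars exact 95% intervals for counting error, dashed lines 2-fold, and the dotted line the median of all genes of that class. Blood endothelial and lymphatic cells and fibroblasts lie right of 0 for every member, tumor cells spread from -0.71 (Psmb10) to 2.78 (Psmb9), and Ptprc+ cells lie around 0.

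The order of the classes by CPM differed with the gene and the library. In PyMT-M, blood endothelial and lymphatic cells were the highest classes for H2-K1, H2-D1, B2m and Psmb8, with intervals that overlapped each other but not the next class. They also ranked highest for Tap1, Tap2, Psmb9 and Psmb10, but there the lower of them overlapped the next class, which was Ptprc+ cells or, for Psmb10, fibroblasts. Tumor cells were lowest for H2-K1, B2m, Tapbp and Psmb10, and for Tap1 with an interval that overlapped that of fibroblasts. In PyMT-N, Ptprc+ cells were highest for Tap1, Psmb8, Psmb9 and Nlrc5. They also ranked first for H2-K1, Tapbp and Psmb10, with intervals that overlapped those of blood endothelial cells or, for Psmb10, lymphatic cells. H2-K1 in PyMT-N, for example, was at 1125 CPM in Ptprc+ cells and 1102 CPM in blood endothelial cells. Fibroblasts were lowest in PyMT-N for every member but Tap1, Tap2 and Tapbp, for which tumor cells were lowest, with intervals that overlapped those of fibroblasts for Tap1 and Tap2.

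Within blood endothelial cells the members followed the interferon-inducible chemokines. Cells with at least 2 UMIs of Cxcl9 and Cxcl10, 145 in PyMT-M and 130 in PyMT-N, had 11736 and 7078 CPM of the summed members, and the other cells had 8052 and 4443 CPM. The ratio between the libraries was present on both sides of that cut, at 0.73 (0.693 to 0.766) in cells with the chemokines and 0.86 (0.834 to 0.882) in cells below it. These sums are mostly H2-K1, H2-D1 and B2m. In cells with the chemokines the intervals of Tap2 (-0.18, -0.568 to 0.202) and Nlrc5 (0.38, -0.121 to 0.874) held 0, against 0.43 and 1.18 below the cut. Cycling blood endothelial cells had at least 2 UMIs of Mki67 and Top2a. Their members summed to less, at 6699 CPM in 81 PyMT-M cells and 4105 in 104 PyMT-N cells, against 9732 and 4893 in the others. By gene, H2-K1, H2-D1, B2m, Tap2, Tapbp and Psmb10 were lower in cycling cells of both libraries, and Tap1 and Psmb9 were higher. Psmb8 and Nlrc5 were lower in PyMT-M and higher in PyMT-N. The intervals were apart in both libraries for H2-K1, H2-D1, B2m and Tapbp only.

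Tumor cells differed in cycling between the libraries, 3584 of 4902 in PyMT-M and 219 of 3306 in PyMT-N passing that cut. Directions were the same in both states for all 10 members. H2-K1 had a log2 ratio of -0.40 (-0.447 to -0.354) in cycling and -0.26 (-0.291 to -0.229) in other tumor cells, H2-D1 of 1.28 and 1.42, Psmb9 of 2.45 and 2.67, and Psmb10 of -1.03 and -0.84. Nlrc5 was at 0.80 in cycling and 1.33 in other tumor cells, and Tapbp at 0.068 in cycling cells with an interval that held 0 (-0.0491 to 0.188). Cycling shares are set by a count of UMIs and so move with depth.

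The other class I heavy chains set the tumor cells of PyMT-M apart further. In blood endothelial cells, where 4.17% of all genes were at least 2-fold higher and 6.99% lower, 10 of 11 such genes had at least 50 UMIs, of which 5 were at least 2-fold higher and 1 lower in PyMT-M (median 0.99), from H2-Q6 at 1.66 to Cd1d1, which presents lipids, at -1.99. In tumor cells 3 of 9 were at least 2-fold higher and 5 lower (median -4.39), against 21.0% and 25.6% of all genes. H2-T23, whose product Qa-1 is the ligand of the NK receptor NKG2A, had 32 UMIs in all PyMT-M tumor cells (0.265 CPM) and 4400 in PyMT-N (58.2 CPM), a log2 ratio of -7.78 (-8.33 to -7.28), while blood endothelial cells had 120 and 57.1 CPM. H2-Q4, H2-Q7 and Cd1d1 were also low in PyMT-M tumor cells, with log2 ratios of -4.70, -5.16 and -4.62. H2-T10 was the highest of the list at 3.60, from 5.79 and 0.476 CPM. Some H2 genes among them are alike in sequence, with the same limit on counting. The counts do not show whether the genes low in PyMT-M tumor cells are missing from that line, silent in it, or of another H2 haplotype whose reads were not assigned to them, and these cannot be told apart here.

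Genes that load and trim peptides or form the constitutive proteasome came next. Of all genes tested in blood endothelial cells, 4.17% were at least 2-fold higher in PyMT-M and 6.99% lower. Of 9 loading and trimming genes 0 were 2-fold apart in blood endothelial cells (median 0.12, from Erap1, which trims peptides in the endoplasmic reticulum, at 0.64 to Tpp2 at -0.023) and 2 were at least 2-fold lower in tumor cells, near the 25.6% of all genes (median -0.41, from Tpp2 at 0.46 to the protease gene Ide at -1.31). Of 7 constitutive subunits and activators 0 were 2-fold apart in blood endothelial cells (median 0.28, Psme2 at 0.51 and Psme3 at 0.029) and 1 was higher in tumor cells, where 21.0% of all genes were, Psme3 at 1.57, with Psme1 at -0.057 the lowest. The constitutive partners Psmb5, Psmb6 and Psmb7 had tumor log2 ratios of 0.44, 0.29 and 0.52.

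Interferon signaling genes differed between the classes. In blood endothelial cells 1 of 15 was at least 2-fold higher in PyMT-M, where 4.17% of all genes were. It was Stat2 at 1.01, with an interval on both sides of the limit (0.817 to 1.19). At least 2-fold lower were 0, where 6.99% of all genes were, and the list had a median of 0.016. The lowest was the receptor gene Ifngr1 at -0.19. In PyMT-M tumor cells 1 was at least 2-fold higher, the feedback inhibitor Socs1 at 1.84, where 21.0% of all genes were. At least 2-fold lower were 7, where 25.6% of all genes were (median -0.61), with the kinase gene Jak2 the lowest at 6.27 and 106 CPM (-4.08, -4.19 to -3.97). The receptor chain Ifngr2 was at 15.3 and 71.2 CPM (-2.22). Irf1, an interferon-induced activator of class I genes, was at 22.5 and 68.9 CPM (-1.61). Also at least 2-fold lower were Tyk2 at -1.56 and the receptor genes Ifnar2 at -1.24, Ifnar1 at -1.14 and Ifngr1 at -1.10. Irf9 was at 0.81, Jak1 at 0.43 and Stat2 at 0.35. Of 4 interferon genes searched in all 5 classes, Ifnb1 had 87 UMIs in PyMT-M tumor cells against 5 in PyMT-N tumor cells (0.720 and 0.0662 CPM). Ifng had 11 and 13 UMIs in Ptprc+ cells, which held 2561244 and 4420907 UMIs in total, so these raw counts do not rank the libraries. No other count was above 2.

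Partners and repressors of class I transcription differed by less than 2-fold in blood endothelial cells. In blood endothelial cells 0 of 13 were 2-fold apart, where 4.17% of all genes were higher and 6.99% lower. The list ran from Eed at 0.43 to Rfx5 at -0.71 (median -0.011). In tumor cells 8 of 13 were above 0, where 47.1% of all genes were, with a median of 0.43 against -0.086 for all genes. At least 2-fold higher was 1, where 21.0% of all genes were, Rfxap of the RFX complex at 1.01. At least 2-fold lower were 0, where 25.6% were, and the lowest was Rfxank, of the same complex, at -0.68. The Polycomb genes Ezh2, Eed and Suz12, whose complex can repress class I genes, were at 0.88, 0.65 and 0.47. Kdm1a of the same list was at -0.28.

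Class II genes, which present peptides taken up from outside, ran against class I in blood endothelial cells. All 7 were at least 2-fold lower in PyMT-M (median -3.71), where 6.99% of all genes were. They ran from H2-DMa at -1.27 to their transactivator Ciita at -3.95 (3 and 210 UMIs). Macrophage markers moved with the class II genes, 6 genes summing to 20.9 CPM in PyMT-M with Adgre1 at 0 and to 338 CPM in PyMT-N, as did the B cell genes Cd79a and Ms4a1 at 9.40 and 87.9 CPM. Of the blood endothelial cells 6 in PyMT-M and 56 in PyMT-N were also Ptprc+. The part of these cells in the class II values was not tested. In blood endothelial cells in no other class and without a UMI of Krt8, Krt18, Rhox5, Ptprc and Col3a1 (513 and 856), the summed class I members had a log2 ratio of 0.94, as large as in the whole class. In tumor cells 2 of 6 class II genes were at least 2-fold higher in PyMT-M, where 21.0% of all genes were, and 4 lower, where 25.6% were. The 2 higher were H2-DMb1 at 20.5 and 0.0926 CPM and H2-DMa at 24.9 and 2.61.

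**Figure D5:**
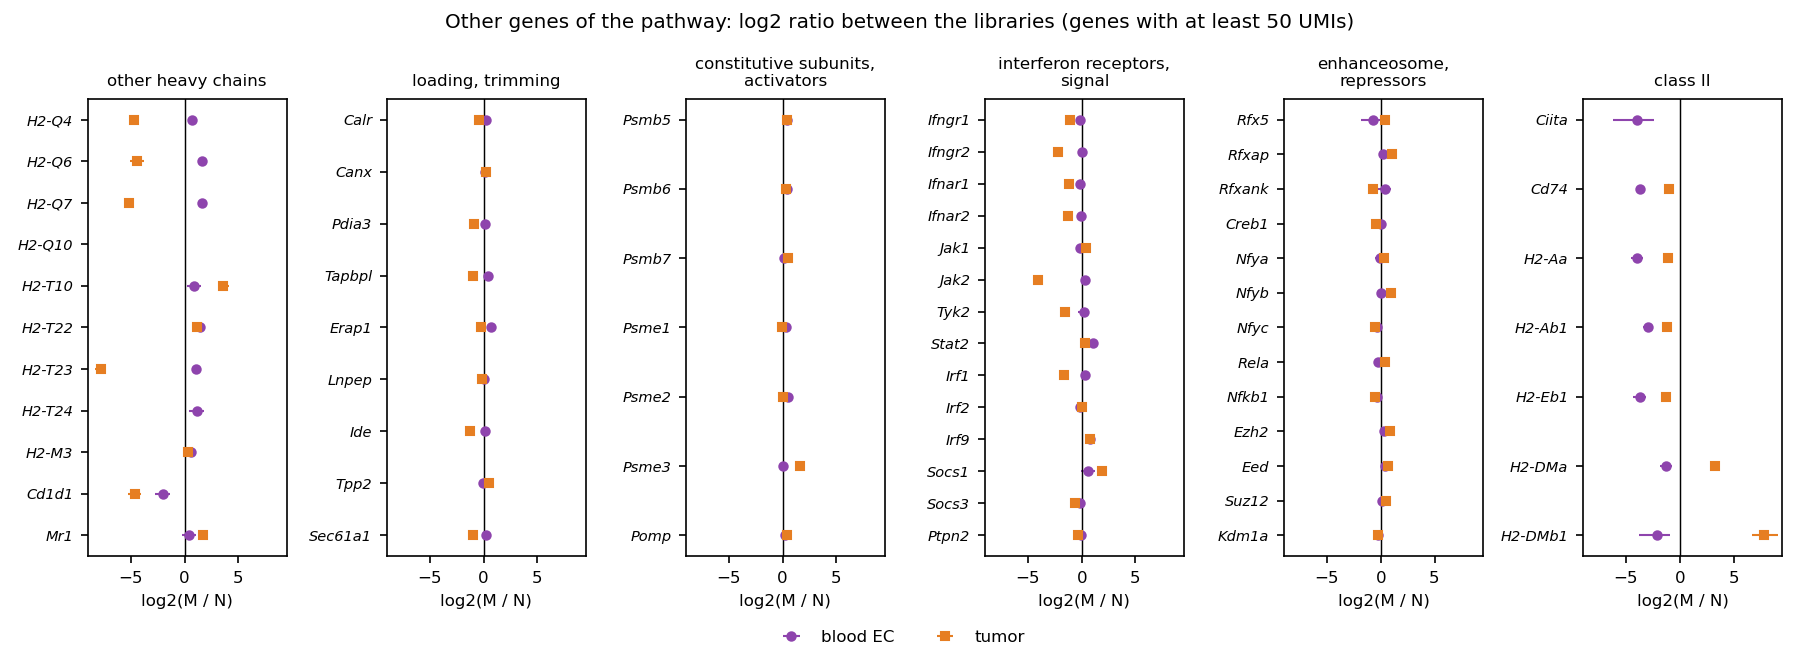
Log2 ratio between PyMT-M and PyMT-N for other genes of the pathway in 6 lists, 1 interferon signaling gene being left out, with blood endothelial cells as purple circles and tumor cells as orange squares; bars are exact 95% intervals and genes under 50 UMIs in a class have no point. H2-T23, H2-Q7, H2-Q4, Cd1d1, H2-Q6 and Jak2 lie far left in tumor cells, and class II genes lie left in blood endothelial cells.

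Genes whose levels across the 10 combinations of class and library were most like the mean pattern of the members were sought among 10470 genes by Pearson correlation of log2 CPM. Utp14a (0.956), Gbp5 (0.953), Parp10 (0.948), Oasl1 (0.946), Cklf (0.939), Nmi (0.936), Adar (0.934) and Casz1 (0.931) came nearest. The members themselves ranged from 0.638 for Tapbp to 0.961 for Psmb8, with Psmb10 at 0.791. Each member is part of the mean it was compared with, which raises its value, so these are not comparable with those of the other genes. The 10 points share libraries and depth, and the lymphatic point of PyMT-M rests on 20 cells, so these values describe likeness in these data alone.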

How the data were processed

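Single-cell 3′ RNA sequencing (10x Genomics, v3.1 chemistry) was done on 2 libraries, PyMT-M and PyMT-N, each a pool of 3 tumors. Raw UMI counts of each gene in each barcode were deposited by the authors without normalization, after Cell Ranger 8.0.0 on mm39 according to the submitters' processing notes. The gene annotation behind it was not stated. Genes were matched by symbol and identifier, and each of the 10 had 1 row.

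Cell classes followed UMI rules on marker genes, after limits of 200 genes and 10% mitochondrial UMIs. UMIs were summed per class and library and divided by the total UMIs of that class (CPM). UMIs of a 3′ assay are not divided by gene length. CPM have exact Poisson intervals, shares exact Clopper-Pearson intervals, ratios the exact conditional interval of 2 counts, and differences of ratios the square-and-add interval, all at 95%. Interval coverage and direction were tested on simulated Poisson counts. Those hold counting error only, so that check says nothing of the spread between cells or tumors. A gene with 0 UMIs in a library was set to a floor of 3 counts over the class. No doublet caller was run. The limit on detected genes and stricter classes stand in its place. There being 1 library per condition, p-values and standard errors were not calculated. Genes reaching 50 UMIs in a class, both libraries together, formed the background, and 2-fold was the limit for counting a member as apart. The likeness of patterns used log2 of CPM plus 1, over genes with at least 20 CPM in at least 1 combination.

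The genes named are the 10 members, the highest and lowest ratio of each pathway list, and other genes of those lists chosen after their values were seen (Ifngr2, Irf1, Irf9, Jak1, Ifnar1, Ifnar2, Tyk2, Ezh2, Eed, Suz12, Kdm1a, H2-Q4, H2-Q7, Cd1d1, H2-DMa and the constitutive proteasome subunits). The members, lists and subsets were chosen with earlier results of these data known. Promoter windows are from a RefSeq table on GRCm38.p6. Alternatives covered both limits on cells, the total, the median of all genes set to 0, the mean over cells, stricter classes, thinning to 3000 UMIs, the UMI minimum and a 1.5-fold limit. Software was matplotlib 3.10.9, Biopython 1.88, scipy 1.17.1, numpy 2.4.6 and pandas 2.3.3 under Python 3.11.15. Values of 1 interferon signaling gene are not reported here, though it is in the counts of its list. The imaging, proteomic and human data of the study are not analysed here.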

Additional observations from a re-analysis of the deposited data

Results flagged for a closer look

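For 3 genes the log2 ratio of PyMT-M to PyMT-N lay above 0 in blood endothelial cells and below 0 in tumor cells. The difference, tumor minus blood endothelial, was -1.48 for H2-K1, -1.18 for B2m and -1.55 for Psmb10. A tumor ratio below 0 was common, since 47.1% of all genes tested in tumor cells were above 0. Of those genes 42.4% lay at or below H2-K1, 41.3% at or below B2m and 31.6% at or below Psmb10. The share of all genes with such opposite signs was not calculated. With 1 library per condition this difference was not tested, and its counting intervals leave out the spread between tumors.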

How the results depend on the processing

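No paired analysis was possible because each condition has 1 library, and for the same reason no replicate could be left out. All 10 blood endothelial ratios kept their direction under every alternative, as did 9 of 10 in tumor cells, 9 of 10 in lymphatic cells, 9 of 9 in fibroblasts, 8 of 10 tumor minus endothelial differences and 3 of 10 in Ptprc+ cells. The summed log2 ratio in blood endothelial cells was 0.957 with a 5% mitochondrial limit, 0.870 with detected genes within 2-fold of the library median, 0.880 as a mean over cells and 0.883 without cells holding mural or fibroblast UMIs, an alternative added after seeing the data. In tumor cells it was 0.635 without mitochondrial, ribosomal protein and hemoglobin genes in the total, which shifts every tumor ratio by 0.19, and 0.530 with the median of all genes at 0, 0.451 as a mean over cells, 0.434 in stricter classes and 0.458 in thinned cells. Their difference was -0.508, -0.427, -0.285, -0.401, -0.428, -0.503 and -0.439 under the mitochondrial limit, the gene limit, the other total, the median at 0, the mean over cells, stricter classes and the limit on mural genes. With a 1.5-fold limit 9 members counted as higher in blood endothelial cells and 1 as lower in tumor cells. The share of all genes at that limit was not calculated, so these counts have no background. Directions turned for Tap1 in lymphatic cells (-1.26 with the gene limit, which left 7 PyMT-M cells), Tapbp in tumor cells (-0.17, stricter classes) and the Psmb8 difference (-0.22, stricter classes), and the Nlrc5 difference went to -0.22 there and to -0.11 with the limit on mural genes. In Ptprc+ cells they turned for H2-K1 (0.026 as a mean over cells), B2m (0.097, 0.053 and 0.18 as a mean over cells, at 2 or more Ptprc UMIs and thinned) and Psmb10 (0.35, 0.17 and 0.25 likewise), and, in cells without tumor markers, an alternative chosen after seeing the data, for H2-K1 (0.16), B2m (0.21), Tapbp (0.072) and Psmb10 (0.62). Tap1 (-0.15 without tumor markers, -0.26 thinned), Tap2 (-0.12 and -0.076) and Psmb8 (-0.24 with the gene limit) also went below 0 in Ptprc+ cells, from values whose intervals held 0. The cause of these turns was not tested beyond the number of cells left. Depth limits the lymphatic values of PyMT-M and Nlrc5 in fibroblasts.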
